A study of Mus musculus with 6 samples.

Results

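The 10 genes described here are markers of the unfolded protein response and the integrated stress response: Atf3, Atf4, Ddit3, Hspa5, Xbp1, Trib3, Chac1, Herpud1, Asns and Sesn2. They were taken by gene symbol from tables of 24422 genes, and all 10 were found. Each was measured by RNA sequencing in 6 whole mouse kidneys of strain C57BL/6 at postnatal day 60, on a diet with 220 ppm iron. Of these kidneys, 3 were control (wild type) and 3 were TfR1KO;KspCre, labelled Tfr1f/f;KspCre and called knockouts below. In the knockouts, the floxed exons of TfR1 (gene symbol Tfrc), which imports transferrin-bound iron, are removed by a Cre under the Ksp-cadherin promoter. That promoter is active in the distal nephron and collecting duct, so the deletion covers part of the kidney, whereas the RNA came from all of its cells. The comparison asks how the transcripts of these stress pathways differ between the groups.

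Unfolded proteins in the endoplasmic reticulum (ER) are sensed by the membrane proteins PERK (Eif2ak3), IRE1 (Ern1) and ATF6, which are held inactive by the chaperone BiP (Hspa5). IRE1 splices the Xbp1 transcript, and XBP1 and ATF6 then raise ER chaperones and the degradation machinery. PERK belongs to a family of kinases that phosphorylate the translation factor eIF2alpha. The other kinases respond to heme shortage and mitochondrial stress (HRI, Eif2ak1), double-stranded RNA (PKR, Eif2ak2) and amino acid shortage (GCN2, Eif2ak4). This phosphorylation lowers general translation but raises that of ATF4, and the transcripts induced by ATF4 are known as the integrated stress response. ATF4 protein is set largely by translation, so the level of Atf4 mRNA is not its activity, and counts per gene do not separate spliced from unspliced Xbp1.

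The promoters of these genes are shown first, because 6 of the 10 hold letters of elements known from these pathways. A match is a description and does not show that a factor acts there. RefSeq promoter windows (250 bases before to 50 after the transcription start, build GRCm38.p6) were had for all 10 genes. Each was searched on both strands for 5 motifs. The ER stress response element (ERSE), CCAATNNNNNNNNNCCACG, is bound by ATF6 with the factor NF-Y. It was found in 1 of the 10 windows, that of Hspa5, and in 0.119% of 32851 windows of the same length. The shorter ERSE-II, ATTGGNCCACG, was found in Herpud1 and in 0.0365% of all windows. The C/EBP-ATF element, TGATGNAA, through which ATF4 acts with C/EBP partners, was found in 5 of the 10 (Atf3, Trib3, Chac1, Herpud1 and Asns) and in 3.97% of all windows. The UPRE core TGACGTGG and the cyclic AMP element TGACGTCA were found in 0 of the 10 windows, and in 0.676% and 1.79% of all windows. No 2 matches overlapped. The stretches holding the matches are printed 5′ to 3′ along the gene, with the fixed letters of each match in capitals. Those of Hspa5 and Herpud1 show the ER elements, and the other 4 show the C/EBP-ATF element, which is written on the opposite strand in all but Asns.
Hspa5, chr2:34771970-34772069, plus strand: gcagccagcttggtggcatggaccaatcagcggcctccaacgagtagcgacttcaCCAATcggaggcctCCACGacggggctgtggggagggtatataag
Herpud1, chr8:94386299-94386398, plus strand: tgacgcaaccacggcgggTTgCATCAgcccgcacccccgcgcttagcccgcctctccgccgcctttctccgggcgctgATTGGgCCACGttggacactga
Atf3, chr1:191183414-191183473, minus strand: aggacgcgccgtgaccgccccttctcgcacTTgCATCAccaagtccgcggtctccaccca
Chac1, chr2:119351022-119351081, plus strand: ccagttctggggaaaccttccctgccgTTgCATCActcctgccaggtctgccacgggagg
Asns, chr6:7693210-7693269, minus strand: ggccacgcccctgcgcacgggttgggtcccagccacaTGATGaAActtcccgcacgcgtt
Trib3, chr2:152344028-152344057, minus strand: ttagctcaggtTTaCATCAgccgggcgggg

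**Figure D1:**
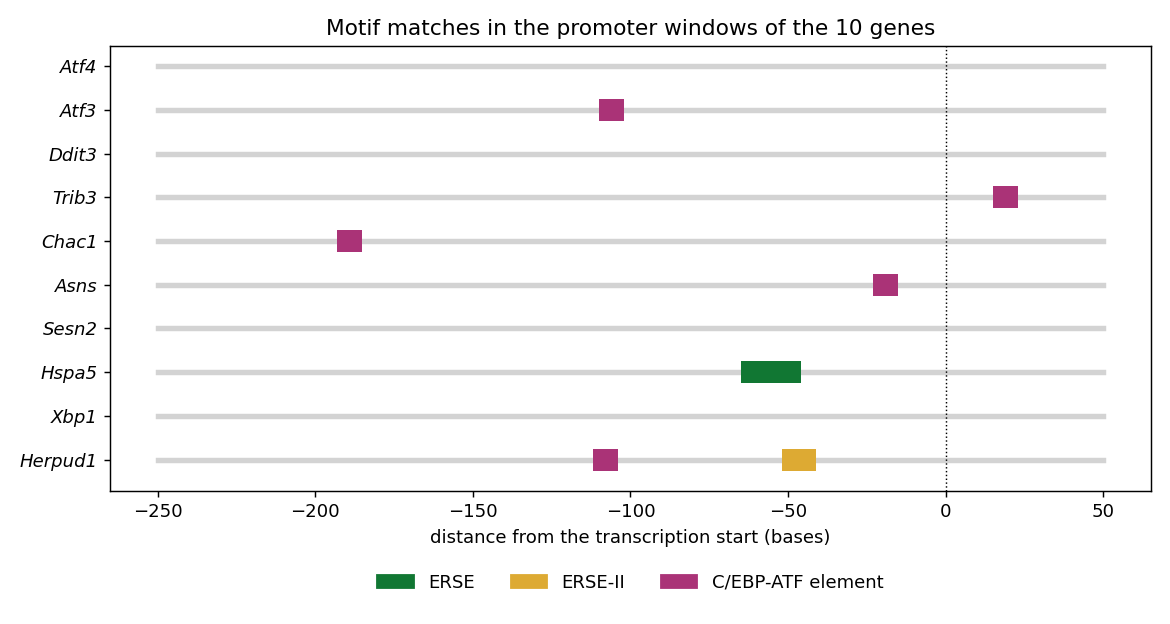
Positions of motif matches in the promoter windows of the 10 genes, with the distance from the transcription start in bases on the horizontal axis and 1 gene per row; grey lines are the windows and coloured boxes the matches. Herpud1 holds 2 kinds of element, at -112 and -52, Hspa5 holds an ERSE at -65, and Atf4, Ddit3, Sesn2 and Xbp1 hold none of the 5 motifs.

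Total counts were 18036845 to 21001341 in controls and 11501053 to 19576330 in knockouts, the lowest being knockout 3, in which the ribosomal RNA gene Rn45s took 2.59% of counts against at most 0.745% elsewhere. Control 2 held 52 counts of Xist and 3980 of 4 Y-linked genes, whereas the other 5 libraries held at least 10458 and at most 5. Tfrc was at 138.5, 167.9 and 62.0 CPM (counts per 1000000 counts, with library sizes scaled by TMM) in the control libraries. The knockout libraries were at 214.4, 86.0 and 40.6 CPM, and its transcript gave no check of the labels. Proximal tubule markers (10 genes, 7 called lower) summed to between 14182 and 19460 CPM in controls, and to 7727, 2848 and 2315 CPM in knockouts 1 to 3. Thick ascending limb markers (6 genes, 0 called) summed to between 5448 and 11883 CPM in controls and to 6973, 929 and 1238 CPM in knockouts, so knockout 1 was the closest of the knockouts to the controls in both. Markers of macrophages (7 of 8 called higher), fibroblasts (3 of 5), injured tubules (5 of 7) and plasma cells (1 of 6 tested) summed to 170 to 188, 239 to 403, 1426 to 3840 and 39.0 to 45.7 CPM in controls. In knockouts the same sums were 476 to 1725, 734 to 3021, 5767 to 8787 and 109.5 to 534 CPM. Of all genes tested, 10.6% were called higher and 6.64% lower. Havcr1 (5, 43 and 8 counts in controls) and Krt20 (40, 52 and 9) passed the filter on low counts only through the knockouts. Their calls are no support for the injured tubule list. The 1 plasma cell call was Sdc1, at 78.7, 180.3 and 143.0 CPM in knockouts. The groups overlapped for Mzb1, Irf4 and Prdm1, but not for Jchain and Cd79a. None of the markers was at 0 in a whole group. The part of this change of cells in the values below was not tested, and fewer cells of a type cannot be told apart from less RNA per cell in whole tissue.

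Of the 10 genes, Atf3, Trib3 and Atf4 rose and Herpud1 fell in the knockouts (edgeR's quasi-likelihood test, adjusted p under 0.05 over all 15171 genes tested). This is 4 of 10, where 17.2% of all genes tested were called, 10.6% higher and 6.64% lower. The knockouts lay above all controls for 5 of the 10 genes (Atf3, Atf4, Ddit3, Trib3 and Asns) and below them for 1 (Herpud1). Over all genes tested 23.8% lay above and 22.2% below. The median log2 fold change was 0.64 over the 10 genes and 0.02 over all genes tested. Without knockout 1 these medians were 0.39 and 0.02, so the first depended on that library. The 7 genes of the integrated stress response all had a log2 fold change above 0 (median 0.87), where 51.5% of all genes tested did. The lowest of the 7 was Sesn2, at 0.05 (SE 0.27), and it was at -0.31 without knockout 1. Of the 3 ER genes, Hspa5 and Herpud1 had a log2 fold change below 0 (median of the 3 -0.43).

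**Figure D2:**
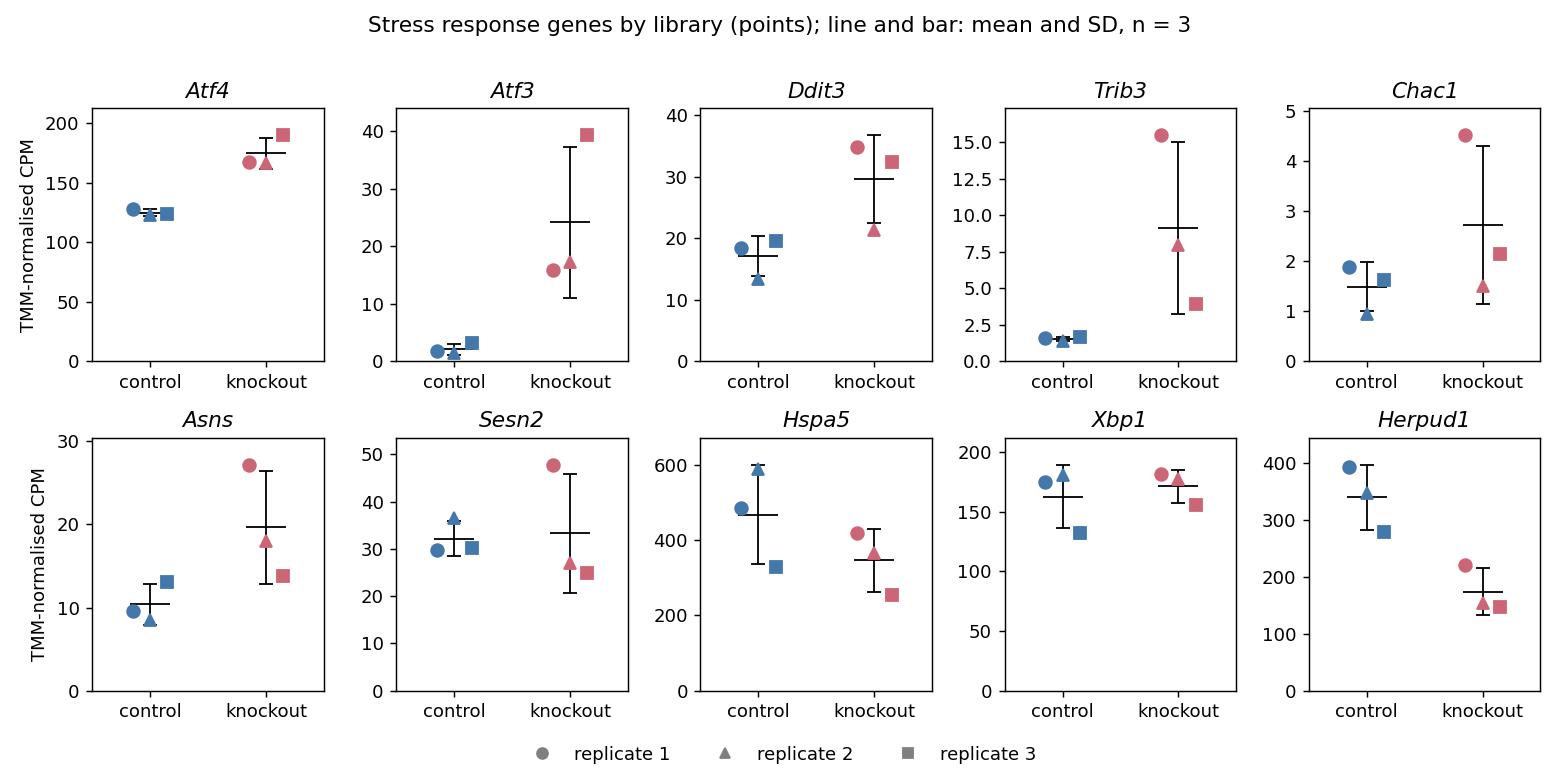
Level of each of the 10 genes in every library, as TMM-normalised CPM on axes that start at 0; points are libraries, shaped by replicate number, and the line with its bar is the mean and SD of 3. Atf3 was at 1.35 to 3.12 CPM in controls and 15.9 to 39.3 CPM in knockouts, Herpud1 lay lower in all 3 knockouts, and Xbp1, Hspa5, Chac1 and Sesn2 overlapped.

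Atf4 (ENSMUSG00000042406; mm9 chromosome 15, 80085614 to 80087970, plus strand) encodes the transcription factor at the centre of the integrated stress response. Controls 1 to 3 held 128.1, 122.7 and 123.7 CPM of it, and knockouts 1 to 3 held 167.6, 166.9 and 189.8 CPM. The groups did not overlap, and the controls lay within 1.04-fold of each other. Atf4 rose 1.40-fold (log2 fold change 0.49, SE 0.13; edgeR, adjusted p 0.0482). This call lay at the threshold, and was lost with DESeq2's size factors in edgeR (adjusted p 0.0515), with no filter on low counts (0.0718) and with limma-voom (0.0510).

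Atf3 (ENSMUSG00000026628; chromosome 1, 192994175 to 193007219, minus strand) encodes a transcription factor of the same family that is induced by ATF4 and by many other stress signals, injury among them. Controls 1 to 3 held 1.69, 1.35 and 3.12 CPM, from 34, 23 and 52 raw counts. Knockouts 1 to 3 held 15.9, 17.3 and 39.3 CPM. Every knockout was above every control, and knockout 3 was the highest. Atf3 rose 11.7-fold, the largest change of the 10 (log2 fold change 3.55, SE 0.50; edgeR, adjusted p 0.0271).

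Ddit3 (ENSMUSG00000025408; chromosome 10, 126727830 to 126733344, plus strand) encodes CHOP, a factor known for its role in stress-induced apoptosis. It was at 18.4, 13.4 and 19.6 CPM in controls and at 34.8, 21.4 and 32.5 CPM in knockouts. Knockout 2 lay only just above the highest control. The log2 fold change was 0.79 (SE 0.24), which did not pass (edgeR, adjusted p 0.0628). Ddit3 shares exonic positions with Mars on the opposite strand, and the strand setting of the counting was not found, so its level is uncertain. Mars itself had a log2 fold change of 0.13 and was not called.

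Trib3 (ENSMUSG00000032715; chromosome 2, 152163158 to 152169768, minus strand) encodes a pseudokinase induced by ATF4 and CHOP that feeds back on them. The controls were at 1.59, 1.35 and 1.62 CPM and the knockouts at 15.5, 7.98 and 3.91 CPM. The groups did not overlap, and the knockouts differed 3.96-fold among themselves, more than for any other of the 10 genes. Trib3 rose 5.99-fold (log2 fold change 2.58, SE 0.52; edgeR, adjusted p 0.0313). Trib3 was highest in knockout 1, in which Atf3 was lowest among the knockouts.

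Asns (ENSMUSG00000029752; chromosome 6, 7625169 to 7643254, minus strand) encodes asparagine synthetase, an enzyme induced by ATF4 when amino acids are short. Its levels were 9.55, 8.46 and 13.1 CPM in controls and 27.1, 18.0 and 13.8 CPM in knockouts. The lowest knockout and the highest control were close to each other. The log2 fold change of 0.92 (SE 0.30) did not pass (edgeR, adjusted p 0.0729).

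Chac1 (ENSMUSG00000027313; chromosome 2, 119176965 to 119180117, plus strand) encodes an enzyme that degrades glutathione and is a target of ATF4. It had few counts, with 38, 16 and 27 in controls and 92, 30 and 28 in knockouts, or 0.940 to 1.89 CPM against 4.52, 1.51 and 2.15 CPM. Only knockout 1 and knockout 3 lay above the controls. The log2 fold change was 0.87 (SE 0.51; edgeR, adjusted p 0.242), and 0.28 without knockout 1, so that library carried most of the difference. No change was detected.

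Sesn2 (ENSMUSG00000028893; chromosome 4, 132047947 to 132066416, minus strand) encodes sestrin 2, which restrains the growth kinase mTORC1 under stress and is induced by ATF4 and p53. Controls 1 to 3 held 29.9, 36.4 and 30.1 CPM, and knockouts 1 to 3 held 47.8, 27.1 and 25.0 CPM. Knockout 1 was above all controls, and knockouts 2 and 3 were below them. The mean difference was within the spread (log2 fold change 0.05, SE 0.27; edgeR, adjusted p 0.901), and its sign turned to -0.31 without knockout 1.

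Among the ER genes, Herpud1 (ENSMUSG00000031770; chromosome 8, 96910338 to 96919277, plus strand) encodes a membrane protein of ER-associated degradation and is induced by all branches of the unfolded protein response. It was at 393.2, 347.3 and 279.9 CPM in controls and at 221.2, 154.4 and 147.5 CPM in knockouts. All 3 knockouts lay below all 3 controls. Herpud1 fell 1.95-fold (log2 fold change -0.96, SE 0.23; edgeR, adjusted p 0.0379). Its promoter window, printed above, holds a match to ERSE-II and a match to the C/EBP-ATF element. An annotated antisense gene, Gm15890, overlaps it. With library size alone in place of TMM, which moved the median of all genes by 0.27 on the log2 scale, Herpud1 was at -0.71 and not called (edgeR, adjusted p 0.0519).

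Hspa5 (ENSMUSG00000026864; chromosome 2, 34627490 to 34632051, plus strand), the chaperone BiP, is the classical reporter of ER stress. Its levels were 485.5, 589.8 and 327.9 CPM in controls and 419.7, 365.4 and 254.8 CPM in knockouts. The groups overlapped, and the controls alone spanned 1.8-fold. The log2 fold change was -0.43 (SE 0.29; edgeR, adjusted p 0.307).

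Xbp1 (ENSMUSG00000020484; chromosome 11, 5420662 to 5425896, plus strand) encodes the factor that is activated by IRE1 and is also needed by plasma cells. Its levels were 175.2, 180.5 and 132.2 CPM in controls, and 181.2, 177.0 and 155.2 CPM in knockouts. The groups therefore overlapped nearly in full. The log2 fold change was 0.07 (SE 0.17; edgeR, adjusted p 0.780), and -0.062 without control 3.

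**Figure D3:**
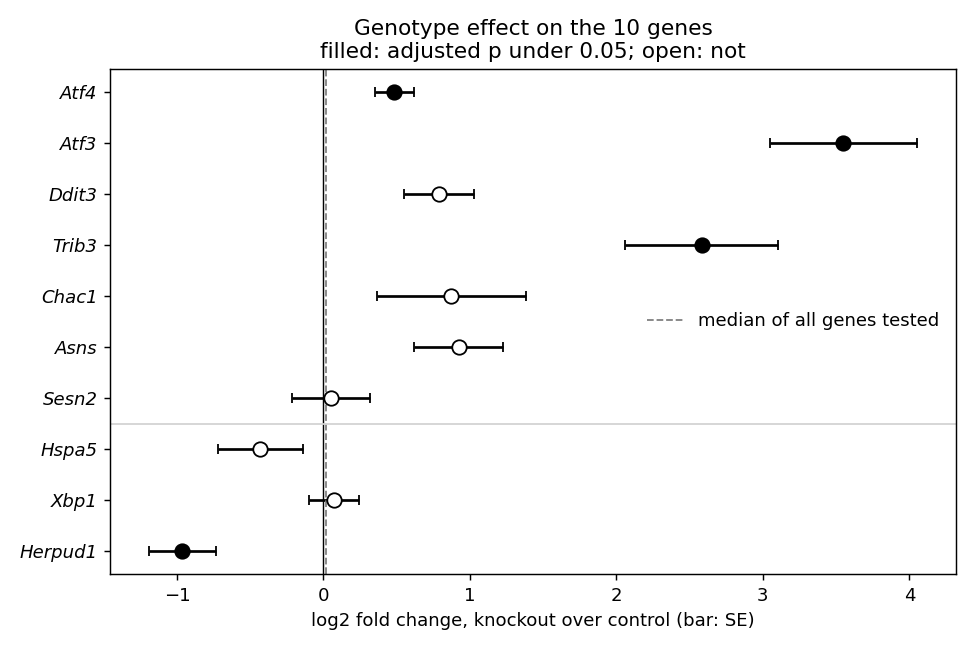
Log2 fold change of the 10 genes, knockout over control, with bars of 1 SE; filled points passed an adjusted p of 0.05 and the grey line separates 7 genes of the integrated stress response from 3 ER genes. Atf3 (3.55) and Trib3 (2.58) stand far to the right, Atf4 (0.49) and Herpud1 (-0.96) also passed, and the other 6 did not.

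The calls of the 4 genes were lost without any 1 of the libraries other than knockout 1. Without any 1 of the controls, edgeR called 0 genes of the whole table, with 4270 to 4823 genes and 4 to 6 of the 10 at an unadjusted p under 0.05. Without knockout 2 it called 73 genes and without knockout 3 it called 2, with 0 of the 10 among them. At an unadjusted p under 0.05 these fits had 4604 of 15408 and 4456 of 15439 genes, and 6 of the 10 in both. Without control 2, the library with Y-linked transcripts, the log2 fold changes were 3.32 for Atf3, 2.49 for Trib3, 0.46 for Atf4 and -0.96 for Herpud1, with adjusted p from 0.118 to 0.157 (edgeR). With all libraries and a covariate from sex-linked transcripts, these 4 genes had an adjusted p from 0.111 to 0.141 (edgeR), and 0 genes of the whole table were called. Without knockout 1, 34.4% of all genes tested were called, and so were the same 4 of the 10, at log2 fold changes of 3.77 for Atf3, 1.96 for Trib3, 0.51 for Atf4 and -1.18 for Herpud1. DESeq2's Wald test called 32.3% of all genes tested and 6 of the 10 genes, which added Ddit3 and Asns (adjusted p 0.0246 and 0.0292).

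Knockout 1 held the highest level among the knockouts for 8 of the 10 genes, where this was so for 37.6% of all genes tested. It is also the knockout whose sums of proximal tubule and thick ascending limb markers lay nearest to the controls. Its sum of injured tubule markers, at 8399 CPM, did not, but most of it was Spp1 (6986 CPM), which was not called. Lcn2, Vcam1, Sox9, Krt20 and Clu were lowest in knockout 1 among the knockouts, whereas Havcr1 was highest there. For Hspa5 and Herpud1 this highest level was the one nearest to the controls. For Trib3, Asns, Chac1, Ddit3 and Sesn2 it was the one farthest from them, and for Xbp1 the groups overlapped. Atf3 and Atf4 were instead highest in knockout 3. Without knockout 1 the log2 fold changes of Asns, Ddit3 and Trib3 were 0.61, 0.64 and 1.96. The 10 genes therefore did not order the 3 knockout kidneys alike.

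Ratios of raw counts within a library do not depend on how libraries are scaled. Pairs were chosen after their values were seen, so they are given with no test. The ratio of Ddit3 to Herpud1 was 0.0467, 0.0386 and 0.0699 in the control libraries, against 0.157, 0.139 and 0.220 in the knockout libraries. Each knockout was above every control. Atf4 to Hspa5 was 0.264, 0.208 and 0.377 against 0.399, 0.457 and 0.745, again with no overlap. The ratio of Herpud1 to Hspa5 was 0.810, 0.589 and 0.854 in controls and 0.527, 0.422 and 0.579 in knockouts. Herpud1 was thus lower relative to the chaperone as well. Trib3 to Ddit3 was 0.0828 to 0.101 in controls and 0.444, 0.372 and 0.120 in knockouts, with knockout 3 close to the controls. Of 7 pairs computed, Chac1 to Atf4 was the 1 whose groups overlapped, at 0.0148, 0.00766 and 0.0131 in controls and 0.0269, 0.00902 and 0.0113 in knockouts. Xbp1 to Hspa5 was 0.306 to 0.403 in controls and 0.432 to 0.609 in knockouts.

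**Figure D4:**
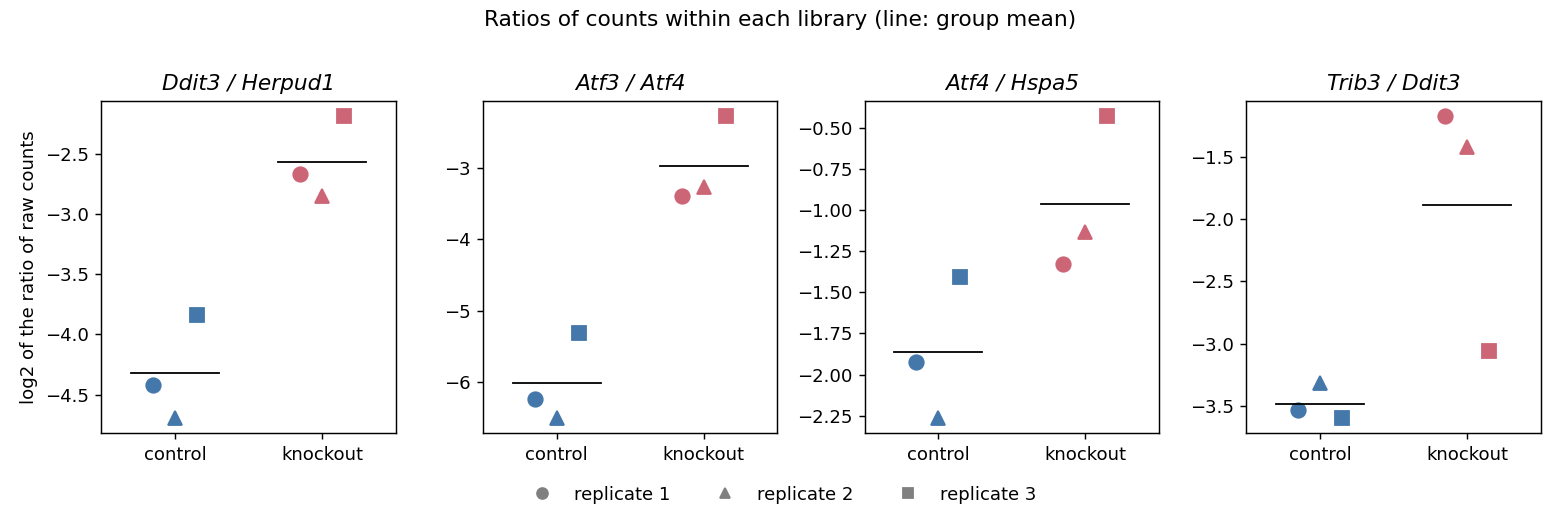
Log2 of the ratio of raw counts of 2 genes within each library, for 4 of the 7 pairs, picked after their values were seen; points are libraries and lines are group means. The mean log2 ratio was higher in knockouts by 1.75 for Ddit3 to Herpud1, 3.04 for Atf3 to Atf4, 0.90 for Atf4 to Hspa5 and 1.59 for Trib3 to Ddit3, and the groups overlapped in none of these 4, whereas those of Chac1 to Atf4, not drawn, did.

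Levels were compared between genes as CPM per kilobase of the longest annotated transcript. In controls Hspa5 (179 ± 50.5, SD, n = 3) and Herpud1 (174 ± 29.2) were the highest, and their ranges overlapped. Xbp1 (76.4 ± 12.5) and Atf4 (72.4 ± 1.65) came next and overlapped as well. Below them were Ddit3 (17.7 ± 3.37), Sesn2 (9.25 ± 1.07) and Asns (5.14 ± 1.20), which did not overlap each other. Atf3 (1.04 ± 0.473), Chac1 (0.907 ± 0.299) and Trib3 (0.751 ± 0.0729) were the lowest and overlapped. In knockouts Atf4 (101 ± 7.55) stood above Herpud1 (89.3 ± 20.9) in mean, with ranges that overlapped. Atf3 (12.2 ± 6.63) there reached the range of Asns (9.74 ± 3.39).

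The rest of the pathway was read from 6 lists, of which 86 of 88 genes were tested. Upstream, among the eIF2alpha kinases and their partners (7 genes), only Eif2ak2 was called, and 1 of 7 is near the 17.2% called over all genes tested. Eif2ak2, the gene for PKR, which is also induced by interferon, rose from a mean of 28.6 ± 2.26 CPM to one of 51.6 ± 12.4 CPM (SD, n = 3). Its log2 fold change by edgeR was 0.85 (SE 0.20, adjusted p 0.0377). Eif2ak1, the heme-regulated kinase, was at 84.5, 98.1 and 90.7 CPM in controls and 77.5, 54.9 and 52.9 CPM in knockouts. Its groups did not overlap, but the log2 fold change of -0.56 (SE 0.18) did not pass (edgeR, adjusted p 0.0695). Eif2ak3 and Eif2ak4 had -0.26 and -0.08, and Ppp1r15a (GADD34, the inducible subunit of the eIF2alpha phosphatase, itself an ATF4 target) had 0.28, and none of the 3 was called. Ppp1r15b, the constitutive subunit of that phosphatase, was at 122.4 to 162.4 CPM in controls and 101.0 to 115.2 CPM in knockouts. Its groups did not overlap, but its log2 fold change of -0.37 (SE 0.16) did not pass (edgeR, adjusted p 0.125). Eif2ak1, Eif2ak2 and Ppp1r15a overlap antisense genes, so their levels are uncertain to that extent.

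Of the ER stress sensors and proteases, 9 of 10 genes were tested and 0 were called, with 0 at an unadjusted p under 0.05. Over all genes tested 17.2% were called, and 5862 of 15171 had an unadjusted p under 0.05. The largest log2 fold changes were those of Creb3l1 (-0.60) and Creb3l2 (-0.41), membrane-bound factors related to ATF6, followed by Atf6 itself (-0.29) and the protease gene Mbtps2 (0.10). Ern1 had 0.04, and the groups overlapped for all 5. Among ER chaperones and folding enzymes 0 of 18 were called, again with 0 at an unadjusted p under 0.05. Of the 18 log2 fold changes, 14 were below 0 (median -0.20), as were 7361 of 15171 over all genes tested. Library size alone in place of TMM moved the median of all genes by 0.27, and this list median was not computed with it. The largest differences were those of Ero1l (0.59), an ER oxidase that is also a hypoxia target, Sdf2l1 (0.59), Dnajc3 (-0.52) and Fkbp2 (-0.51). Ero1l was at 182.6 CPM in knockout 1 and at 54.5 to 73.5 CPM in the other 5 libraries. In ER-associated degradation 0 of 13 were called and 1, Vimp (-0.52), had an unadjusted p under 0.05. Derl3 (0.95), Edem1 (-0.47) and Edem3 (-0.44) had the other large values. The fall of Herpud1 was thus the only call among the ER genes of these lists and of the 10. DESeq2's Wald test called 21 of the list genes, where it called 32.3% of all genes tested, against 15 by edgeR.

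Of 32 other targets of ATF4 and CHOP tested, 11 were called higher and 1 lower, where 10.6% and 6.64% of all genes tested were. Their median log2 fold change was 0.42, against 0.02 over all genes tested. Gdf15, a stress hormone, rose from 2.89, 5.52 and 6.54 CPM for the controls to 44.2, 35.4 and 50.4 CPM for the knockouts (log2 fold change 3.12, SE 0.33; edgeR, adjusted p 0.0271). Slc7a11, the cystine importer, was at 0.249 to 0.470 CPM in controls, from 5, 8 and 5 counts, and at 1.86, 5.27 and 1.23 CPM in knockouts. It passed the filter on low counts only through the knockouts, so its call (log2 fold change 3.03, SE 0.67; edgeR, adjusted p 0.0339), which is among the 11, is no support for the list. Atf5, a factor linked to mitochondrial stress, rose from between 21.4 and 31.6 CPM to 133.5, 72.7 and 66.0 CPM (log2 fold change 1.76, SE 0.31; edgeR, adjusted p 0.0286), although Il4i1 and Nup62 overlap it on the other strand. Cth, which makes cysteine and is abundant in the proximal tubule, had the lowest value, at -1.78 (SE 0.50; edgeR, adjusted p 0.0510), and did not pass. Shmt2, a mitochondrial enzyme of one-carbon metabolism, was the 1 gene called lower. It was at 195.3 to 274.0 CPM in controls and at 131.4, 52.7 and 57.3 CPM in knockouts (log2 fold change -1.47, SE 0.38; edgeR, adjusted p 0.0441), and it overlaps Ndufa4l2 on the other strand. It was chosen after its value was seen.

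These targets were also sorted by function, after the values were seen, into groups too small to compare. The counts are given with no test, where 10.6% of all genes tested were called higher and 17.2% in either direction. Amino acid transporters were called higher in 3 of 6 genes, Slc7a11 with its limit above among them, regulators in 3 of 5, secreted factors in both of 2 tested and apoptosis genes in both of 2. None of the 8 aminoacyl-tRNA synthetases was called by edgeR, and 0 had an unadjusted p under 0.05. Their log2 fold changes lay between -0.13 and 0.35. Serine and one-carbon enzymes ranged from -1.47 to 1.46, with 1 of 6 called. Of the 32 targets, 16 were highest in knockout 1 among the knockouts, where this was so for 37.6% of all genes tested. Over all 6 lists 15 of 86 genes tested were called, a share close to the 17.2% of all genes tested. Without knockout 1, 26 list genes were called, where 34.4% of all genes were. The count was 1 without knockout 2 and 0 without knockout 3 or without any 1 of the controls. Macrophage, fibroblast and injured tubule markers were higher in the same knockouts, and their part in these counts was not tested.

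**Figure D5:**
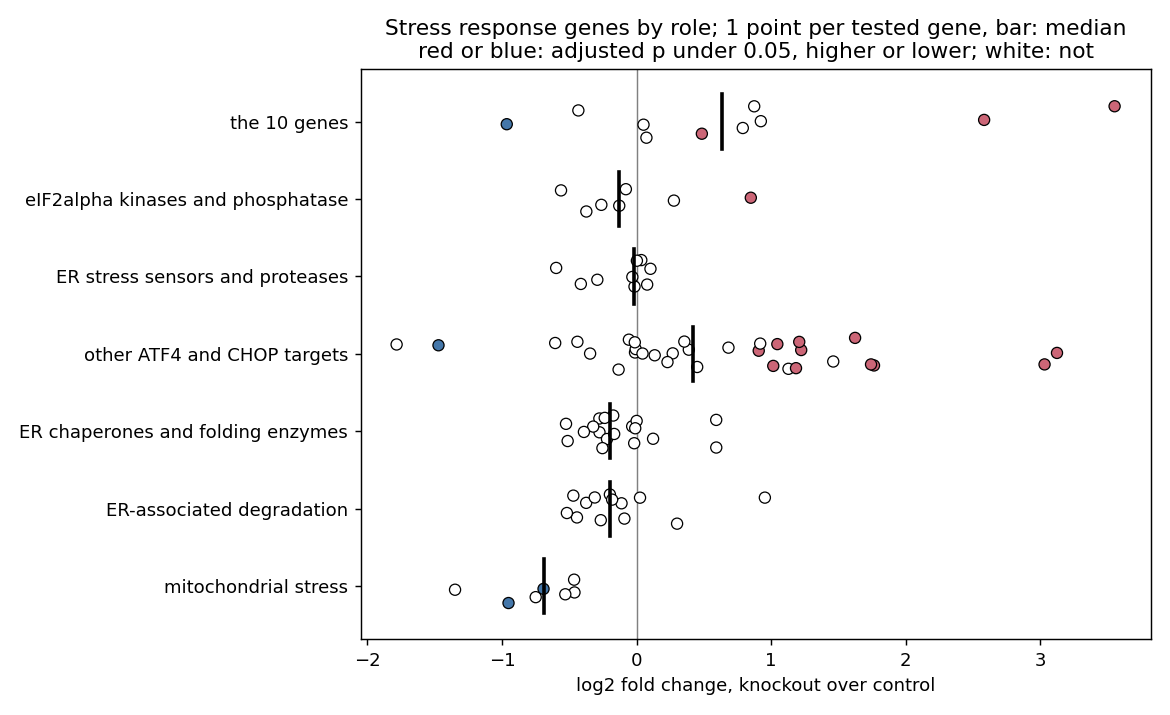
Log2 fold change of each tested gene, knockout over control, for the 10 genes and for 6 lists of the same pathways; bars are medians and colour marks an adjusted p under 0.05. The ATF4 and CHOP targets spread from -1.78 to 3.12 with 11 called higher, ER chaperones and ER-associated degradation stay between -0.52 and 0.95 with 0 called, and all 7 mitochondrial stress genes lie below 0.

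Mitochondrial stress genes were all below 0, with a median log2 fold change of -0.69 over 7 genes. Of the 7, 2 were called lower, where 6.64% of all genes tested were, and 5 lay below all controls in every knockout, where 22.2% of all genes did. Oma1, the protease that relays mitochondrial damage to HRI, fell from a mean of 27.5 ± 1.57 CPM to 20.3, 15.1 and 15.6 CPM in the knockouts (log2 fold change -0.69, SE 0.17; edgeR, adjusted p 0.0401). The chaperonin subunit Hspe1 fell by 0.95 on the log2 scale (SE 0.26; edgeR, adjusted p 0.0498), at the threshold. Its partner Hspd1 (-1.35) and the mitochondrial chaperone Hspa9 (-0.75) were not called. Hspd1 and Hspe1 overlap each other on opposite strands. All 7 genes were highest in knockout 1 among the knockouts, where this was so for 37.6% of all genes tested. The sum of proximal tubule markers was also highest there, and it was lower in every knockout than in every control. Its part in these values was not tested.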

How the data were processed

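Poly-A RNA from 6 whole kidneys was sequenced. Per the study's methods and the submitters' processing notes, the authors called bases with CASAVA 1.8.2, trimmed with Trimmomatic, aligned to mm9 with TopHat2 2.0.11 and deposited raw counts per gene from HTSeq. The annotation and strand setting are not given in the sources used here. Of the 100-base words of the 10 transcripts, 0 occurred elsewhere in mm9.

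Groups and replicate numbers came from the titles, and the series describes biological replicates. Counts were filtered with filterByExpr (minimum count 10, minimum total 15), scaled by TMM and tested with edgeR 4.0.16 (glmQLFit with legacy = TRUE, R 4.3.3), no covariate, with Benjamini-Hochberg adjustment over 15171 genes. SE is the log2 fold change over the square root of F. With 3 against 3, an exact permutation test of 1 gene cannot go below 0.1. Alternatives used DESeq2 1.42.0, limma 3.58.1, other scalings and filters, a replicate block, a covariate from sex-linked transcripts, and each library left out. The fit was first tested on simulated data.

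The 10 genes and the lists were chosen with earlier results of these data known. Named list genes are the 4 with the largest absolute fold change per list, and in the first 2 lists any other tested gene could be named too. Marker genes were named after their values were seen. Gene coordinates are GENCODE M1 (mm9). Promoters are RefSeq (GRCm38.p6), with 0 coordinates converted between builds.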

Additional observations from a re-analysis of the deposited data

How the results depend on the processing

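Over 17 other fits, the 10 genes gave 170 values, of which 127 kept their direction and side of the threshold, 33 lost a call, 4 gained one and 6 changed sign. The sign changes were those of Sesn2 (-0.31 to 0.22 across fits that left out 1 library, -0.0068 with the replicate block) and Xbp1 (-0.062 to 0.15 across fits that left out 1 library), both near 0. Atf3 was called in 10 of the 17 fits and ranged from 3.01 to 3.97. Trib3 was also called in 10 (1.88 to 2.94), Herpud1 in 9 (-1.18 to -0.71) and Atf4 in 6 (0.42 to 0.76). Hspa5, Xbp1, Chac1 and Sesn2 were called in 0. Fits that left out 1 library called 0 to 5332 genes of the table, 0 to 4 of the 10 and 0 to 26 list genes, against 2612, 4 and 15. The replicate block and the covariate each called 0 of all 3 kinds, with 5432 and 4221 genes, and 6 and 5 of the 10, at an unadjusted p under 0.05. For replicate numbers 1 to 3, the deviations of control and knockout correlated at -0.13, 0.012 and 0.21 across genes. The labels link these libraries by number alone. With no such values for unmatched libraries, these correlations cannot decide whether the kidneys were paired. DESeq2's Wald test called 4882 genes, and a 2-fold change as well left 2 of the 10 (Atf3 and Trib3). Without control 2 and knockout 1 together, a fit chosen after the data were seen, Atf3, Trib3 and Herpud1 were called and Sesn2 was at -0.21. The cause was not tested for any of these. Atf3, Trib3 and Chac1 had the fewest counts, with 16 to 52 in each control.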
